A study of Bos taurus with 252 samples.

Results

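The WC1 molecules are scavenger receptor cysteine-rich (SRCR) proteins that ruminants carry on a large share of their circulating gamma delta T cells. They bind microbial and host ligands and act as co-receptors of the gamma delta T cell receptor (TCR), and different WC1 proteins mark subsets of these cells. SOX13 is a transcription factor of the gamma delta lineage. In young cattle gamma delta T cells make up an unusually large part of the lymphocytes in blood, so these genes can be read from whole blood RNA.

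The rows taken from the count table were those whose symbol begins with WC1, plus CD163L1 and SOX13. That gave 7 of 33282 rows, and 5 of the 7 begin with WC1, namely WC1.3, WC1-12, WC1-10, WC1-8 and WC1. RefSeq lists WC1, WC1-2, WC1-5 and WC1.1 as synonyms of CD163L1, so this row belongs to the same family. RefSeq also gives WC1 as a synonym of WC1.3 and of WC1-8, and a symbol therefore does not name a single WC1 protein with certainty. The 6 WC1 family rows lie on a single stretch of a chromosome in RefSeq ARS-UCD2.0, a later build than the one the counts were made on, and no coordinates are given here for that reason. The stretch holds 28 RefSeq genes, of which 18 are in the count table. WC1 genes are near-identical copies in large part, so how reads were divided among the 6 rows is uncertain, and a row may hold reads of its neighbors.

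Whole blood was drawn by jugular venipuncture from 42 crossbred beef steers in 7 groups of 6, and each was sampled 6 times, on days 0, 3, 7, then 14 and 21, and last on day 56, with 1 mRNA library a sample. The groups were untreated negative controls (NC) and steers given a drug once on day 0, after that day's sample had been taken. The drugs were the macrolides tulathromycin (TULA) and tildipirosin (TILD), the cephalosporin ceftiofur (CEFT), the fluoroquinolone enrofloxacin (ENRO), the tetracycline oxytetracycline (OXYT) and the phenicol florfenicol (FLOR). All steers, controls included, had received tildipirosin, a hormone implant, vaccines and a dewormer before arrival. Each group had a pen of its own, so pen and treatment cannot be told apart. NC and ENRO were sequenced on lane 1, TULA on lane 2, CEFT and OXYT on lane 3, FLOR on lanes 1 (2 steers) and 2 (4 steers), and TILD on lanes 2 (4 steers) and 3 (2 steers). Library totals ran from 26.1 to 74.1 M counts with a median of 43.6 M, and the hemoglobin share of a library from 0.00404% to 25.5%. CD3E, which defines T cells, had at least 346 CPM (counts per M library counts, TMM-scaled) in every library. The gamma delta TCR was represented by 3 rows, TRGC3, TRGC4 and TRGC6, and its delta chain was not analyzed here. In bulk blood, fewer gamma delta T cells and less RNA per cell cannot be told apart.

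All 7 rows passed the filter for testing, which was a CPM above 0.2 in at least 12 libraries. WC1.3 was counted in all libraries, from 22.04 to 770 CPM with a median of 155, and WC1-12 in all of them, from 38.2 to 300 CPM with a median of 101. SOX13 was also counted in every library, from 16.6 to 317 CPM with a median of 95.5. The other 4 rows had few counts or none in many libraries and are called the low rows. WC1-10 had a median of 1.1 CPM and a maximum of 15.5, with 0 counts in 53 libraries. CD163L1 had a median of 0 and a maximum of 72 CPM, with 0 counts in 144 libraries. WC1-8 reached 1.06 CPM and WC1 reached 1.18 CPM, and they had 0 counts in 119 and 46 libraries. Of all libraries, 144 held at most 3 counts of WC1-8 and 137 at most 3 of WC1, which is the limit that a count of 0 allows (0.0688 CPM at the median library total, for counting error only). The levels are not scaled by transcript length, so they are not compared between rows. Of the summed counts of the 6 WC1 family rows, WC1.3 took a median of 60.6% of a library's total and WC1-12 a median of 37.3%, while CD163L1 took at most 12.1% and WC1-10 at most 5.12%. These are shares of counts, which also depend on transcript length, and not shares of transcripts.

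The first comparison asked how the rows moved over the feeding period within steers. WC1.3, WC1-12 and SOX13 rose from day 0 to every later day, and by day 56 the mean of WC1.3 had gone from 125 to 256 CPM, that of WC1-12 from 81.8 to 143 CPM and that of SOX13 from 65.3 to 139 CPM. For WC1.3 the 42 steers had a lowest, median and highest level of 22.04, 108 and 442 CPM on day 0, and 97.6, 244 and 716 CPM on day 56. The corresponding values for WC1-12 were 38.2, 71.9 and 205 CPM on day 0 and 55.4, 131 and 271 CPM on day 56. SOX13 went from 16.6, 59.7 and 171 CPM to 59.5, 139 and 280 CPM. The ranges of the 2 days overlapped for all 3 rows, but the direction was shared by almost every animal. WC1.3 was higher on day 56 than on day 0 in 41 of 42 steers, WC1-12 in 41 and SOX13 in 42.

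**Figure D1:**
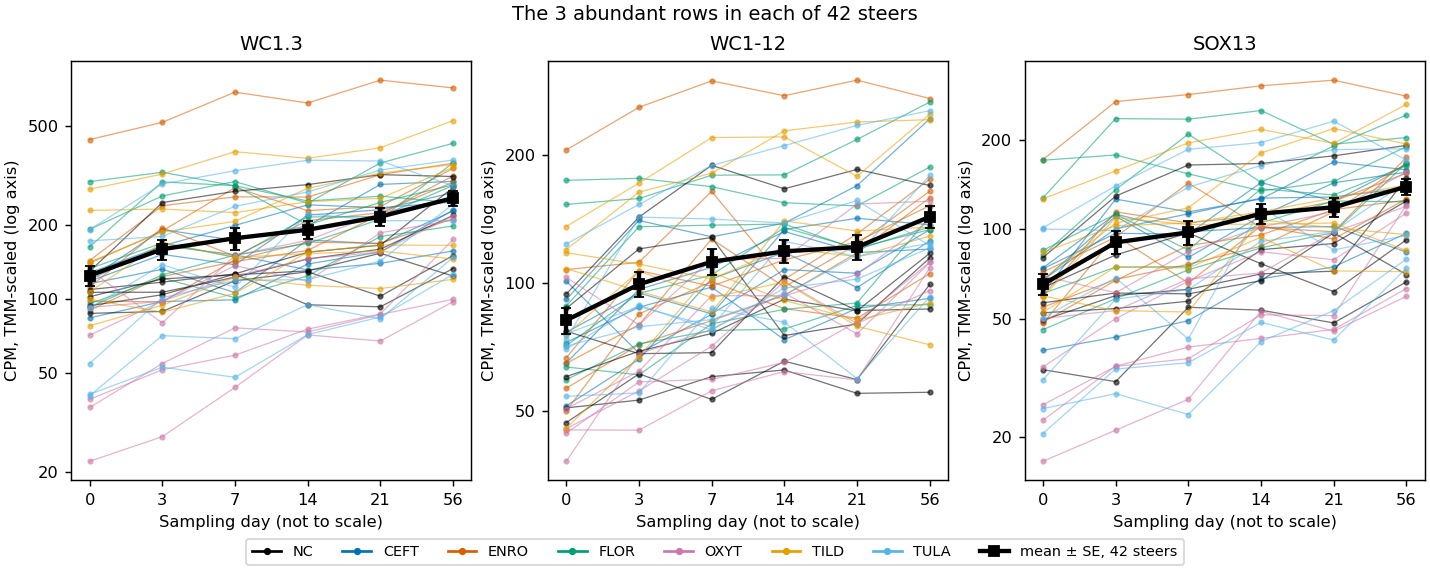
TMM-scaled CPM on a log axis of WC1.3, WC1-12 and SOX13 in each of 42 steers (thin lines, colored by treatment) on 6 sampling days, with the mean and SE of the 42 steers in black. The mean of WC1.3 went from 125 CPM on day 0 to 256 CPM on day 56, and 1 ENRO steer lies above the others on every day in the WC1.3 panel.

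In edgeR's quasi-likelihood test with steer as a block, WC1.3 rose by 1.14 on the log2 scale from day 0 to day 56 (SE 0.058, adjusted p = 5.41e-46), which is 2.21-fold. SOX13 rose by 1.19 (SE 0.0615, adjusted p = 5.32e-45) and WC1-12 by 0.84 (SE 0.0522, adjusted p = 6.69e-36). The rise began early, since day 3 was already above day 0 for WC1.3 (log2 fold change 0.35, adjusted p = 9.86e-08), WC1-12 (0.28, adjusted p = 2.76e-06) and SOX13 (0.43, adjusted p = 5.8e-10). The steps between sampling days differ in length and were not compared with each other by a test. Between days 3 and 7, WC1-12 rose (0.18, adjusted p = 0.00677), while WC1.3 and SOX13 had log2 fold changes of 0.14 and 0.11 that did not pass the test (adjusted p = 0.0568 and 0.202). Between days 7 and 14, WC1.3 rose by 0.17 (adjusted p = 0.00667) and SOX13 by 0.27 (adjusted p = 5.05e-05), and WC1-12 had 0.10 (adjusted p = 0.102). None of the 7 rows passed between days 14 and 21 in edgeR's quasi-likelihood test. Of these, WC1.3 alone had an unadjusted p under 0.05, with a log2 fold change of 0.15 and an adjusted p of 0.0563. All 3 rows rose between days 21 and 56, WC1.3 by 0.32 (adjusted p = 1.28e-05), WC1-12 by 0.27 (adjusted p = 5.09e-05) and SOX13 by 0.31 (adjusted p = 0.000113).

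The low rows had wider errors, and their calls varied between rows and days. In edgeR's quasi-likelihood test CD163L1 did not pass on day 3 (adjusted p = 0.182), WC1-10 on day 14 (adjusted p = 0.0719) or WC1-8 on day 7 (adjusted p = 0.436). CD163L1 had a mean of 1.29 CPM on day 0 and 6.53 CPM on day 56 (log2 fold change 3.57, SE 0.631, adjusted p = 1.74e-07), and it was counted in 15 of 42 steers on day 0 and in 23 on day 56. WC1-10 had a mean of 1.54 CPM on day 0, 3.15 CPM on day 21 and 2.5 CPM on day 56, with log2 fold changes of 1.11 on day 21 (adjusted p = 0.00101) and 0.80 on day 56 (adjusted p = 0.0218). The number of steers with WC1-10 counts was 32 on day 0 and again 32 on day 56. WC1-8 passed on days 3, 14, 21 and 56, with adjusted p between 0.00692 and 0.0361, but its median was 0 CPM on day 0 and 0.0667 CPM on day 56, which is under the 3-count limit, so no fold is given for it. WC1 did not pass on any day, with adjusted p from 0.0869 to 0.953.

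**Figure D2:**
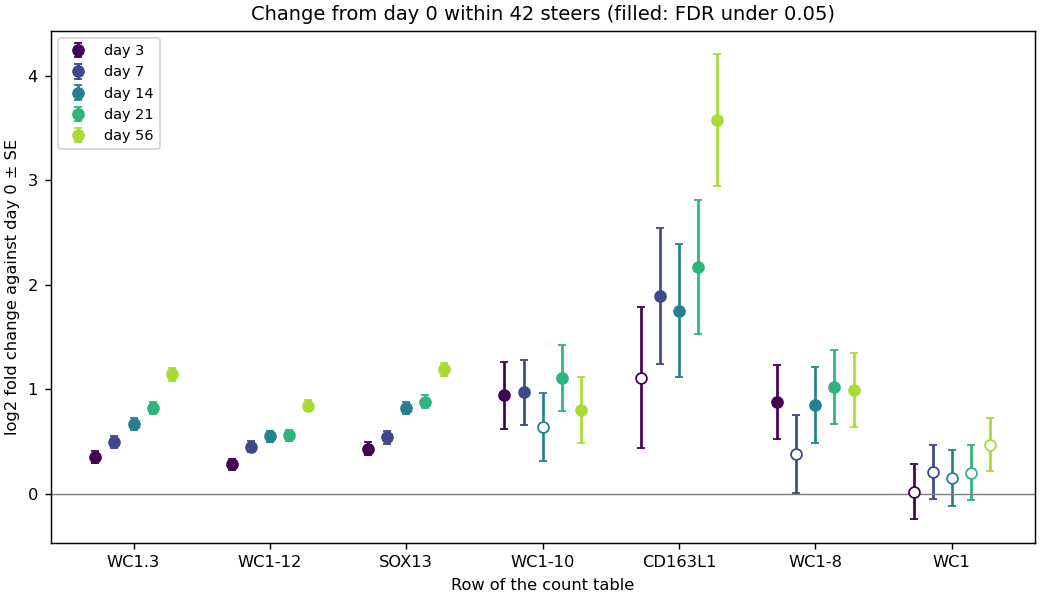
Fitted log2 fold change of each of the 7 rows on each later sampling day against day 0, with SE, from 1 fit on all 42 steers; filled points have an adjusted p under 0.05. WC1.3, WC1-12 and SOX13 have small errors and lie above 0 on all 5 days, and CD163L1 reaches 3.57 on day 56 with an SE of 0.631.

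Much of the table moved with the day, and the counts of rows have to be read against that. Of all genes tested, 81% passed the test over the 6 days together, as did 6 of the 7 rows. On day 3, 5 of the 7 rows were called higher, against 22.1% of all genes. The count was 5 of 7 on day 7 (25.3% of all genes), 5 on day 14 (34.2%), 6 on day 21 (34.1%) and 6 on day 56 (33.9%), and none was called lower on any of these days. Between consecutive days, 1 row was called higher from day 3 to day 7 (9.38% of all genes), 2 from day 7 to day 14 (26.1%), 0 from day 14 to day 21 (7.18%) and 3 from day 21 to day 56 (3.96%). The median log2 fold change of all genes was 0.02 on day 56.

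The rise was present in untreated steers. In NC alone, day 56 was above day 0 by 0.88 for WC1.3 (SE 0.138, adjusted p = 8.51e-05), by 0.60 for WC1-12 (SE 0.144, adjusted p = 0.00302) and by 1.01 for SOX13 (SE 0.16, adjusted p = 9.23e-05). Each of the 3 rows also passed in each of the 6 treatments alone and in each of the 3 lanes alone. The shares of all genes called in these fits are not given here, so the calls are not read as particular to the 3 rows. Across these fits the log2 fold change on day 56 ran from 0.77 to 1.57 for WC1.3, from 0.53 to 1.2 for WC1-12 and from 0.83 to 1.62 for SOX13. The calls of the low rows on day 56 were not as general. CD163L1 was called in each of the 3 lanes alone (adjusted p from 0.000317 to 0.0177). Among the groups it was called in the fits of CEFT and of TULA and in none of the other 5. Its log2 fold changes ran from 0.75 in OXYT (adjusted p = 0.757) to 8.76 in CEFT, with 3.65 in NC (adjusted p = 0.0943). In CEFT on day 0 it had 0 counts in 5 of 6 steers. The mean there was 0.0161 CPM, under the 3-count limit, so the size of 8.76 is uncertain. WC1-10 was called in the fits of OXYT and of TILD and in none of the other 5, and among the lanes on lane 3 only (adjusted p = 0.0428). It was not called by DESeq2 (adjusted p = 0.0818) or without the steer block (adjusted p = 0.165). WC1-8 was called in no group alone, and among the lanes on lane 2 only (adjusted p = 0.0114). WC1-10 had a log2 fold change of -1.12 in FLOR alone, and WC1-8 had -0.69 in CEFT alone and -0.08 on lane 3.

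Markers of other blood cells moved over the same days. Their counts on day 56 stand against 33.9% of all genes called higher and 31.8% called lower. At day 56, 11 of 12 genes of the CD3 complex and its proximal signaling differed from day 0, 9 of them higher, with a list median of 0.32 on the log2 scale. The 4 of smallest p were CD247 (0.61), CD3E (0.66), LAT (0.71) and CD3D (0.54), which encode TCR-associated chains and an adaptor. Their summed level was 2674 to 4281 CPM on day 0 and 3105 to 5304 CPM on day 56. Of 9 tested genes of alpha beta T cells, 8 were higher and 1, CD8A, was lower, with a median of 0.39, and their sum was 984 to 1998 CPM on day 0 and 1269 to 2674 CPM on day 56. All 5 B cell genes changed, 4 of them upwards, with a median of 0.38 and sums of 724 to 2265 CPM and 1194 to 2724 CPM. In contrast, all 5 monocyte genes fell, with a median of -0.88 and sums of 266 to 1299 CPM on day 0 and 182 to 655 CPM on day 56. Of 4 neutrophil genes 3 fell, and all 4 tested NK cell genes fell. The neutrophil sum was 555 to 2136 CPM on day 0 and 411 to 1673 CPM on day 56, and that of the NK cell genes 213 to 1524 CPM and 173 to 614 CPM. CD163 is in both the monocyte and the SRCR list. No gene of these lists was at 0 in all libraries, and TRAC, TRBC1, TRBC2, CSF3R and GNLY were not analyzed here. The part of these shifts in the rise of the WC1 rows was not tested.

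Erythroid genes followed a different course. All 6 were higher on day 14 and on day 21 than on day 0, with list medians of 3.21 and 3.25, and 1 of the 6, ALAS2, on day 56. Their summed level was 37.96 to 39280 CPM on day 0, 366 to 271600 CPM on day 14 and 206 to 133400 CPM on day 56. Leaving hemoglobin rows out of the table kept the call of all 3 abundant rows on day 56. Of 5 platelet genes, 1 was higher on day 56, and their sum was 308 to 2129 CPM on day 0 and 386 to 2078 CPM on day 56.

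Genes that are known for gamma delta T cells did not all move like the WC1 rows. TRGC6 and TRGC4, constant regions of the gamma chain, rose by 0.54 (adjusted p = 4.04e-14) and 0.39 (adjusted p = 1.71e-09) from day 0 to day 56, and TRGC3, with 0 counts in 200 libraries, had 0.01 (adjusted p = 0.994). The sum of the 3 was 77.7 to 462 CPM on day 0 and 132 to 544 CPM on day 56. Among 13 tested genes of the gamma delta lineage and its effectors, 6 were higher and 2 lower on day 56. BLK, a Src family kinase, rose by 1.18 (adjusted p = 8.29e-51), ID3, an inhibitor of E proteins, by 0.94 (adjusted p = 5.28e-30), and GATA3, a T cell transcription factor, by 0.38. IL23R and ZBTB16 fell by 0.50 and 0.22. IL17A and IL17F were under the filter, with 0 counts in 251 and 239 libraries. Of 14 tested genes of the wider SRCR family, 5 were higher and 5 lower on day 56, which is near the share of all genes called higher and called lower on that day. CD5 and CD6, surface proteins found on T cells, rose by 0.47 and 0.34, while DMBT1 and CD163, the monocyte hemoglobin scavenger receptor, fell by 2.15 and 1.11. MARCO, a macrophage receptor, fell by 1.70.

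Steers differed from each other more than days did. Of the variance of log2 CPM, differences between steers within treatments took 48.3% for WC1.3, 53.2% for WC1-12 and 45.6% for SOX13, and the day took 18.8%, 18.4% and 21.4%. Over all genes past the filter the medians were 29.7% for steers and 8.36% for the day. Steer means over 6 days ran from 55.1 CPM (OXYT steer 9) to 627 CPM (ENRO steer 6) for WC1.3 and from 37.05 CPM to 271 CPM in the same 2 steers for SOX13. For WC1-12 they ran from 56.3 CPM in NC steer 1 to 268 CPM in ENRO steer 6. For WC1, 58.2% of the variance was left after treatment, steer, day and the treatment by day part. The same share was 41.6% for WC1-8, 39.4% for WC1-10 and 39.01% for CD163L1, against 6.32% for WC1.3.

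CD163L1 went on and off within steers. Only 5 of 42 steers had counts on all 6 days (ENRO steers 6 and 9, FLOR steer 4, TILD steer 7 and TULA steer 5), 5 had none on any day (NC steer 7, FLOR steers 7 and 10, OXYT steer 5 and TILD steer 5), and 32 had counts on some days. In TULA steer 5, which had the highest mean, the levels on the 6 days in order were 9.67, 21.3, 16.6, 19.4, 72 and 57.5 CPM. By contrast, CEFT steer 5 had 0 counts on days 0, 3, 7 and 14, 611 counts on day 21 and 0 counts on day 56. FLOR steer 8 had 591 counts on day 7 and 626 on day 56, with 0 on the other 4 days. Of 210 steps between consecutive sampling days, 34 in 23 steers went between 0 and more than 100 counts. Over all steps there were 62 changes between counted and not counted, in 32 steers. For WC1-10, 12 steps in 8 steers went between 0 and more than 100 counts. In ENRO steers 9 and 10 and TULA steer 5, WC1-10 had 0 counts on day 14 and at least 225 on days 7 and 21. The deposited values come from the coverage of assembled transcripts, and the part of the assembly in these steps was not tested.

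**Figure D3:**
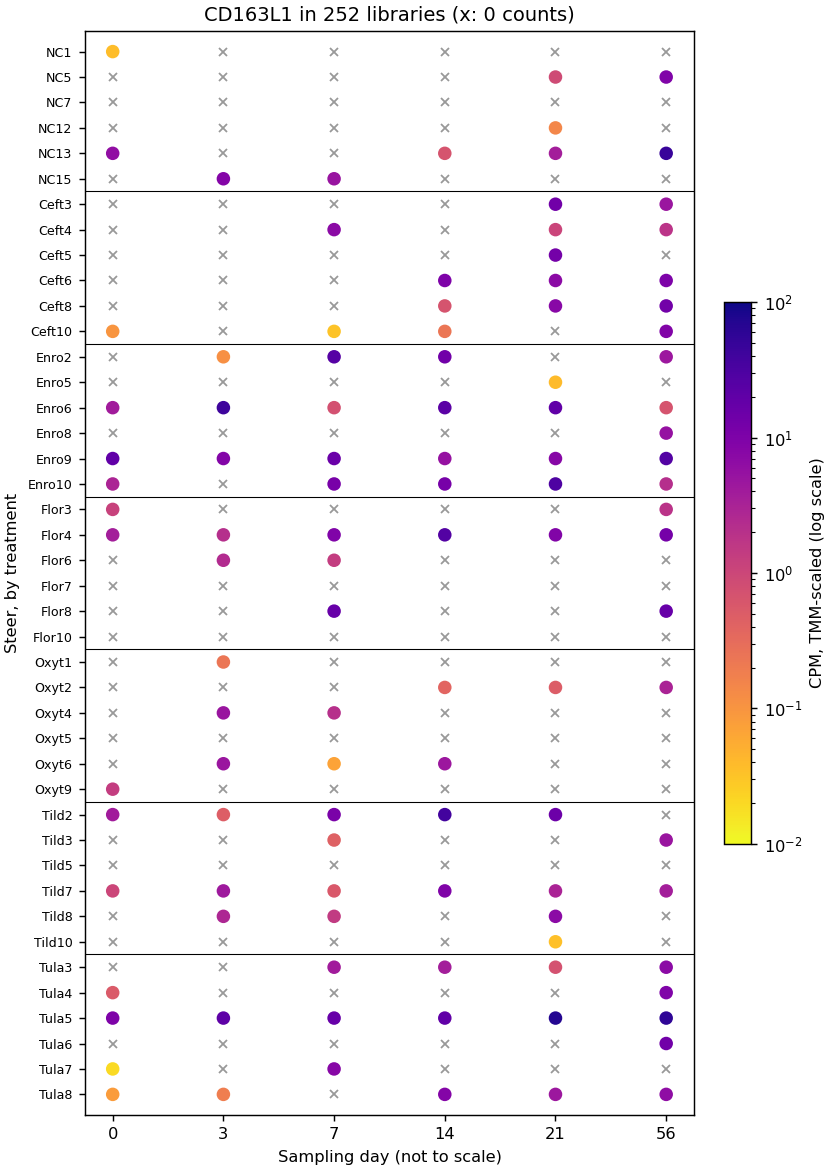
CD163L1 in each of 42 steers (rows, grouped by treatment) on 6 sampling days (columns), with the TMM-scaled CPM of each library as color on a log scale and a cross where the count was 0. TULA steer 5 was counted on all days and reached 72 CPM, 5 steers have crosses on all days, and 32 steers have crosses on some days.

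A ratio of 2 rows within a library does not depend on transcript length when it is followed over days or between steers. WC1.3 over WC1-12 had a median of 1.62 over all libraries and ran from 0.434 to 3.86. It differed mainly between animals, as 62.8% of the variance of its log2 lay between steers within treatments. The part of the uncertain division of reads among the WC1 copies in these differences was not tested. The lowest mean ratio was 0.561 in OXYT steer 9 and the highest 3.05 in ENRO steer 5. The median ratio of the 42 steers on the 6 sampling days, in order, was 1.51, 1.62, 1.53, 1.59, 1.72 and 1.82. From day 0 to day 56 its log2 rose by a mean of 0.30 (SD 0.329) and in 35 of 42 steers. A two-sided permutation test that flipped the sign of each steer's difference gave p = 1e-05, the smallest value that 100000 permutations can give. This test was chosen after the levels had been seen.

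**Figure D4:**
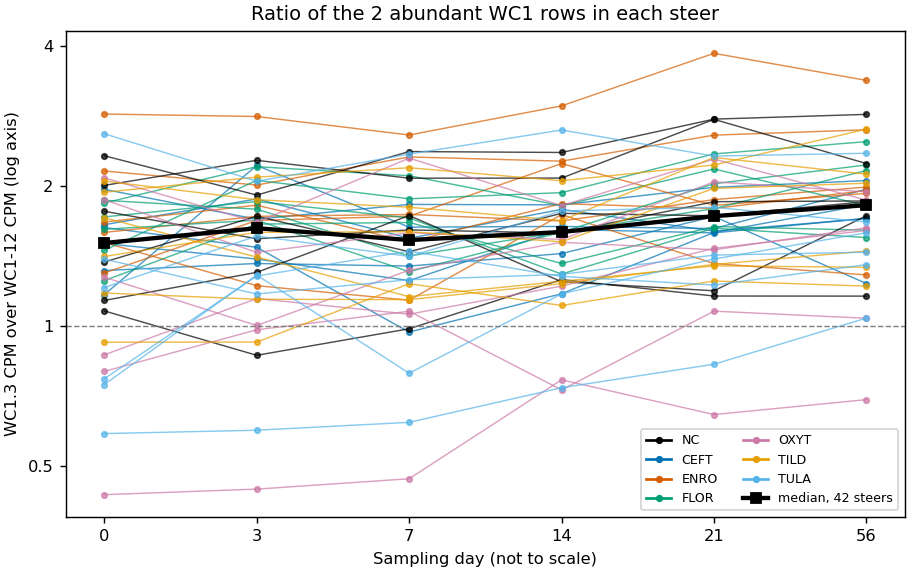
Ratio of WC1.3 CPM to WC1-12 CPM in each of 42 steers on 6 sampling days, on a log axis, with lines colored by treatment and the median of the steers in black. The median moved from 1.51 to 1.82, and the steers kept a wide spread, from 0.695 to 3.37 on day 56.

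Across the 42 steer means, taken as the mean log2 CPM over 6 days, SOX13 rose and fell with WC1.3. Pearson's r between SOX13 and WC1.3 was 0.95 and Spearman's rho 0.91 (permutation p = 1e-05, the smallest possible, adjusted p = 5.5e-05 for both, over 11 pairs). Without the 2 steers farthest from the median of WC1.3, r was 0.93, and within lanes 1, 2 and 3 it was 0.92, 0.96 and 0.96, with 14 steers on each lane. For SOX13 and WC1-12, r was 0.78 and rho 0.81 (permutation p = 1e-05, adjusted p = 5.5e-05), with 0.72 without the 2 steers and 0.85, 0.81 and 0.71 within lanes. CD163L1 was related weakly to WC1.3 (r = 0.43, rho = 0.34, permutation p = 0.00422 and 0.0275, adjusted p = 0.00733 and 0.0336) and to WC1-12 (r = 0.48, rho = 0.54, permutation p = 0.00129 and 0.00025, adjusted p = 0.00284 and 0.000715). Within lanes r was 0.36 to 0.44 with WC1.3 and 0.29 to 0.63 with WC1-12, and without the 2 farthest steers it was 0.34 and 0.37. CD163L1 and WC1-10 gave r = 0.18 (permutation p = 0.254, adjusted p = 0.254), with -0.0861 on lane 2. Of the other 6 pairs, CD163L1 and WC1 gave r = 0.25 and rho = 0.20 (permutation p = 0.108 and 0.209, adjusted p = 0.119 and 0.23), and the other 5, which pair SOX13 with the 4 low rows and CD163L1 with WC1-8, had r from 0.41 to 0.54 with adjusted p from 0.000697 to 0.00768.

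By likeness over all libraries, SOX13 had rank 1 among 19055 genes in its Spearman correlation with WC1.3 (rho 0.94), and WC1-12 had rank 12 (0.81). The libraries share steers and days, so these are descriptions with no test, and the median over all genes was 0.00307. CD163L1 (0.35), WC1-8 (0.40), WC1 (0.31) and WC1-10 (0.27) were farther away. The 10 genes outside the family nearest to WC1.3 were LOC515828 (rho 0.93), BLK (0.91), CXCL12 (0.88), ZBTB46 (0.88), LAMA4 (0.86), L1CAM (0.85), RHEX (0.84), LOC505306 (0.83), LOC615640 (0.83) and KCNIP3 (0.83). CXCL12 is a chemokine, ZBTB46 a zinc finger factor known from dendritic cells, LAMA4 a laminin chain and L1CAM an adhesion molecule. In RefSeq, LOC515828 and RHEX are neighboring genes. With the mean of each steer removed, so that only the movement over days was left, rho with WC1.3 was 0.95 for SOX13, 0.92 for BLK, 0.92 for L1CAM and 0.88 for WC1-12. The T cell genes were less close, with 0.75 for CD247, 0.53 for CD3E, 0.18 for TRGC4 and 0.24 for TRGC6 over the libraries.

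The second comparison set each treatment against NC on the same day. No row was called in any of the 36 comparisons by edgeR's quasi-likelihood test at an FDR of 0.1, where 0.508% of all gene tests were called. Of the tests of a row, 7 rows in 36 comparisons, 27 had an unadjusted p under 0.05. The share of all gene tests under that p is not given here, so this count is not read as a result. The likelihood ratio test, ComBat_seq by lane, a lane term and the other scalings also called 0 rows. DESeq2 called 2, WC1.3 (log2 fold change -0.93, adjusted p = 0.0546) and WC1-10 (-2.9, adjusted p = 0.091) in OXYT on day 3. On that day WC1.3 had a lowest, median and highest level of 27.7, 67.4 and 98.2 CPM in OXYT and 89.1, 112 and 246 CPM in NC. The groups overlapped, and edgeR gave -0.94 with an adjusted p of 0.179.

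By mean over steers and days, WC1.3 was 108 ± 45.4 CPM in OXYT (SD, n = 6), 152 ± 57.3 in NC, 169 ± 95.0 in TULA, 172 ± 32.7 in CEFT, 212 ± 105 in TILD, 223 ± 61.1 in FLOR and 274 ± 178 in ENRO. For SOX13 the order was OXYT (62.9 ± 23.2 CPM, SD), NC (83.5 ± 35.2), TULA (93.0 ± 53.6), CEFT (104 ± 22.8), TILD (116 ± 45.8), ENRO (128 ± 70.6) and FLOR (140 ± 46.9). For WC1-12 it was OXYT (82.8 ± 20.5 CPM, SD), NC (90.8 ± 36.4), CEFT (108 ± 23.3), TULA (116 ± 42.7), FLOR (127 ± 45.4), TILD (132 ± 51.5) and ENRO (134 ± 67.7). No 2 neighbors in these orders differed by more than the larger of their SDs. The groups were ordered by mean, so neighbors lie close by construction, and groups farther apart are not compared by this. The means of WC1.3 and SOX13 were below NC on all 6 days in OXYT and above it on all 6 days in ENRO, FLOR and TILD, day 0 included, before any drug was given. On no day did the 6 steers of a treatment lie wholly above or below the 6 NC steers in any of the 7 rows.

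**Figure D5:**
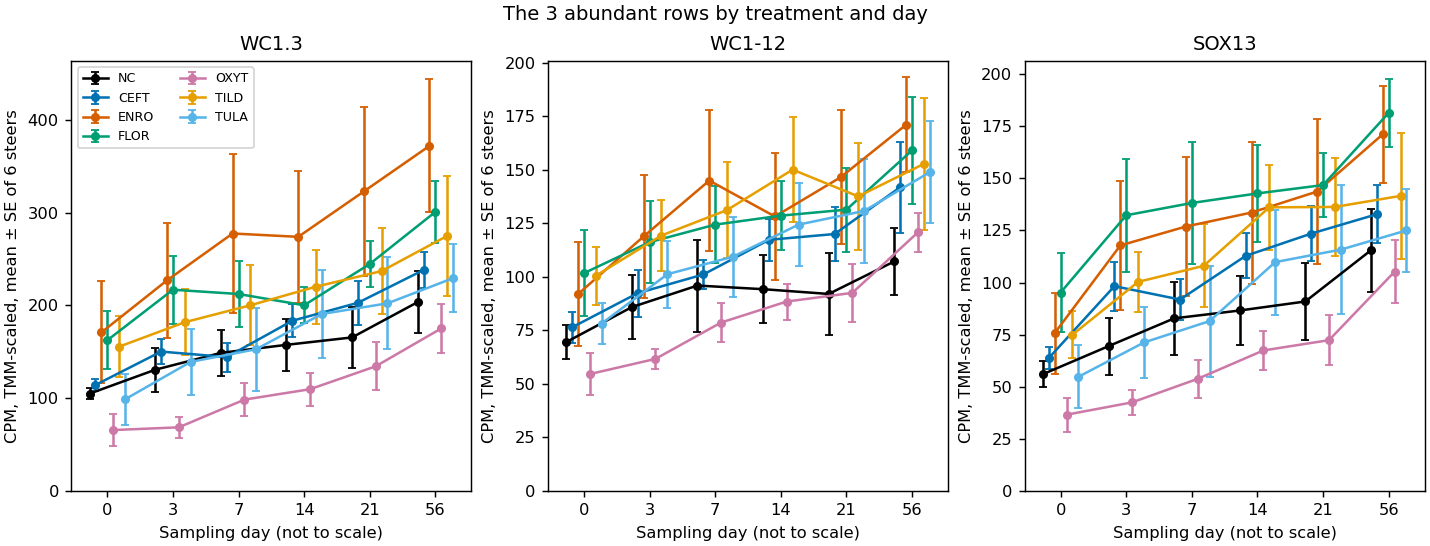
Mean and SE over 6 steers of the TMM-scaled CPM of WC1.3, WC1-12 and SOX13 for each of 7 groups on 6 sampling days, on linear axes from 0. OXYT has the lowest mean of WC1.3 and SOX13 on all days, day 0 included, and the mean of each group is higher on day 56 than on day 0 in all 3 panels.

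Over the 6 days together, limma's voom, which took the steer as a random term, called 3 of 42 tests at an FDR of 0.05, all higher than NC, while 1.95% of all gene tests were called. These were WC1.3 in ENRO (log2 fold change 0.72, SE 0.185, adjusted p = 0.0388, where 0.199% of genes were called higher), WC1-12 in TILD (0.53, SE 0.155, adjusted p = 0.0239, 2.85%) and SOX13 in FLOR (0.75, SE 0.184, adjusted p = 0.0101, 0.782%). Differences in the same direction were there on day 0, but none was called on that day at an FDR of 0.1. There edgeR's quasi-likelihood test of the single day gave 0.70, 0.54 and 0.77 (unadjusted p = 0.0685, 0.0561 and 0.0239). Treating each steer's mean as 1 value, an exact two-sided permutation test of 6 against 6 gave unadjusted p = 0.0563, p = 0.11 and p = 0.0325. In ENRO, steer 6 had 627 CPM of WC1.3, and the other 5 had means of 148 to 262 CPM. Without it the log2 fold change was 0.43 (limma, adjusted p = 0.399). The call was also lost without ENRO steer 5 or 9 or NC steer 1, 5, 12 or 15. That of WC1-12 in TILD was lost without NC steer 1, 7 or 12 or TILD steer 2 or 8, and that of SOX13 in FLOR without NC steer 12 or FLOR steer 10. Without NC steer 12, 0 of the 42 tests were called, without NC steer 1 only 1, and without NC steer 13, 8, and without FLOR steer 4, 5. TILD was not sequenced on the lane of NC, and for FLOR the 2 steers on that lane had SOX13 means of 93.9 and 119 CPM, against 47.9 to 151 CPM in NC. After ComBat_seq by lane, WC1-12 in TILD (0.37, limma adjusted p = 0.66) and SOX13 in FLOR (0.68, adjusted p = 0.0673) were not called. WC1.3 in ENRO was (0.70, adjusted p = 0.049), but ENRO and NC share lane 1.

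The third comparison set the change from day 0 in a treatment against that in NC, which removes a constant difference in level between steers. It does not remove a dependence of the change on the level on day 0, and such a dependence was not tested. It called 2 of 210 tests, both in OXYT on day 56, where 1.59% of all genes were called higher, and 0.761% of all gene tests in the 30 comparisons were called. WC1.3 in OXYT had a lowest, median and highest level of 22.04, 55.3 and 131 CPM on day 0 and 97.6, 192 and 253 CPM on day 56, and in NC 87.5, 104 and 129 CPM on day 0 and 124, 184 and 314 CPM on day 56. The median of OXYT was below the lowest control on day 0 and above the median of the controls on day 56, and the ranges overlapped on both days. The change exceeded that of NC by 0.69 on the log2 scale (SE 0.202, adjusted p = 0.0609), and for WC1-12 by 0.60 (SE 0.191, adjusted p = 0.0903). SOX13 had the same size (0.60, SE 0.219) with an adjusted p of 0.15. The test over all days together called WC1.3 in OXYT (adjusted p = 0.0345, where 3.28% of genes were called) and no other of 42 tests, against 3.0% of all gene tests. These calls rest on few animals. Leaving out NC steer 1, 12 or 15 or OXYT steer 4 or 9 left 0 rows called on day 56, leaving out OXYT steer 1, 2 or 5 left 1, and leaving out NC steer 1, 12 or 15 or OXYT steer 2, 4, 6 or 9 left none in the test over all days. Without the steer block 0 rows were called in both.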

How the data were processed

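Whole blood RNA in PAXgene tubes was made into stranded mRNA libraries. The submitters' processing notes name Trimmomatic 0.39, HISAT2 2.1.1 and StringTie 2.2.0, and the study's methods give ARS-UCD1.3 as the genome and prepDE.py3 for the counts. The authors deposited whole-number estimated counts per gene, derived from transcript coverage and read length, with neither normalization nor lane adjustment. The annotation release is not given in the sources used here.

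Group, day, steer and lane came from the sample labels, and all 252 columns were mapped. Testing was limited to the 19056 of 33282 rows whose CPM exceeded 0.2 in 12 or more libraries. Levels are CPM scaled by TMM. Tests were run in R 4.3.3, the main ones in edgeR 4.0.16 and limma 3.58.1, with alternatives in sva 3.50.0 (ComBat_seq) and DESeq2 1.42.0, with Benjamini-Hochberg adjustment over all genes tested. Days and changes from day 0 were tested by quasi-likelihood with steer as a fixed block, treatments against NC on a day by quasi-likelihood (FDR 0.1), and the group effect by limma voom with duplicateCorrelation, whose degrees of freedom count libraries and not steers. The group effect and the treatment by day test stand in for the mixed model of the study, which was not run. Change from day 0 was called at an FDR of 0.1 and the other tests at 0.05. Log2 CPM used a prior count of 2. The edgeR and limma tests were tested on simulated counts.

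Each steer was sampled on every day, so its libraries are paired. After the daily mean of the group was subtracted, the correlation of 2 libraries was 0.342 in the median when they came from 1 steer and -0.082 when from 2 steers of that group, and 42 of 42 steers averaged above 0.1. No 2 libraries were identical. Rows, gene lists and tests were chosen with earlier results of these data known. Named genes were the 7 rows, the 10 genes outside the family nearest to WC1.3, and up to 4 genes of smallest p per list, of which 1 is not reported here; members of the lists named beyond these, and the steps of CD163L1 and WC1-10, were chosen after their values were seen.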

Additional observations from a re-analysis of the deposited data

Results flagged for a closer look

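Of 154 groups of 6 steers examined (126 of WC1.3, WC1-12 and SOX13 by treatment and day, and 28 of steer means of the 4 low rows), 34 had a sample apart from the other 5 by Dixon's criterion. For normally distributed values chance gives this in about 1 of 20 groups. CPM values are skewed and the low rows hold many counts of 0, so that rate does not apply here and 34 is not set against it. The 126 groups are not independent, since each steer appears on 6 days and the 3 rows move together. ENRO steer 6 accounted for 16 of the 34. Its WC1.3 was 442, 520, 689, 622, 770 and 716 CPM on the 6 sampling days in order, where the next steer of the group had 143, 239, 283, 259, 319 and 355 CPM. Its SOX13 was 171, 268, 284, 303, 317 and 280 CPM in the same order. Its WC1-12 stood apart on days 0 (205 CPM), 3 (259), 14 (275) and 21 (300). The steer was already apart from its group on day 0, before enrofloxacin was given.

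NC steer 13 was the other steer apart on several days, with WC1.3 at 246, 273, 291 and 319 CPM on days 3, 7, 14 and 21, WC1-12 at 185 CPM on day 21, SOX13 at 166 CPM on day 14 and a CD163L1 mean of 9.81 CPM. It did not meet the criterion on day 0 in these 3 abundant rows.

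Single flags were low values of CEFT steer 10 (WC1.3 at 83.9 CPM on day 0 and SOX13 at 43.4 CPM on day 3) and high values of CEFT steer 6 (WC1-12 at 243 CPM on day 56), OXYT steer 6 (WC1-12 at 103 CPM on day 0), TULA steer 7 (WC1-12 at 124 CPM on day 0) and FLOR steer 10 (SOX13 at 250 CPM on day 14). Among the low rows, the steer means apart were those of FLOR steer 10 (WC1-10, 8.15 CPM), OXYT steer 1 (WC1-10, 4.32 CPM), TILD steer 2 (CD163L1, 11.5 CPM), TULA steer 5 (CD163L1, 32.8 CPM, with the next steer of the group at 3.3 CPM) and CEFT steer 3 (WC1-8, 0.399 CPM).

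The change from day 0 in OXYT was set against that in NC by edgeR's quasi-likelihood test. On day 56 the log2 difference was 0.69 for WC1.3 (adjusted p = 0.0609) and 0.60 for WC1-12 (adjusted p = 0.0903). Both were called at an FDR of 0.1, and SOX13 with 0.60 was not (adjusted p = 0.15). Over all days together WC1.3 had an adjusted p of 0.0345. Of 12 steers left out in turn, 6 cost the call of WC1.3 on day 56 and 7 that of WC1-12. Without the steer block 0 rows were called. On day 0 the median of WC1.3 was 55.3 CPM in OXYT and 104 CPM in NC.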

How the results depend on the processing

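The calls of WC1.3, WC1-12 and SOX13 on day 56 against day 0 kept direction and side of the threshold in all 15 alternatives run. Of 35 tests of a row against day 0, 27 were called, and DESeq2 called 24. Each group alone, with 6 steers and a replicate block, called 8 (FLOR), 9 (NC), 13 (TULA), 13 (TILD), 15 (CEFT), 15 (ENRO) and 16 (OXYT) of 35. The share of all genes called in each of these fits is not given here, so the counts are not compared between groups. The sign on day 56 turned for WC1-10 in FLOR alone (-1.12), for WC1-8 in CEFT alone (-0.69) and on lane 3 (-0.08), and for WC1, which was not called, in TULA alone (-0.31) and on lane 2 (-0.20), and the cause was not tested. Against NC on a day, DESeq2 called 2 tests and edgeR 0, and steers were not left out there since edgeR called none. For change from day 0 against NC, 2 were called with the steer as replicate block, 0 with no replicate block and 1 without the filter. The treatment by day test called 1 with and 0 with no replicate block. The group effect called 3, and 1 after ComBat_seq by lane. Leaving out each of 24 steers gave 0 to 8 calls of the group effect, and each of 12 steers gave 0 to 3 calls for OXYT on day 56 and 0 to 1 for OXYT over all days, alternatives added after the data had been seen. Shares of variance with a prior count of 0.5 and correlations without TMM changed no call and no share by over 1.5 times. Steers of different groups that share a number in their titles were not paired (median correlation of deviations -0.000579 over 54 pairs). A replicate block by number could be run only for OXYT, TILD and TULA, which each share 2 numbers with NC. It called 0 of 126 tests, but with 2 pairs a test it could hardly call any, so no conclusion is drawn from it. At 26.1 to 74.1 M counts a library, the median library held 1 count of WC1-8 and 3 counts of WC1, which limits the precision of their fold changes.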

Other observations

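The stretch that holds the WC1 family rows has other rows in the count table that the symbol rule did not take. WC-7, whose symbol lacks the numeral, was counted in 138 libraries with a mean of 0.702 CPM and a correlation of 0.23 with WC1.3 (Spearman, over the libraries). LOC786796, a protein-coding gene between WC1-12 and WC1-10, had a mean of 7.37 CPM and counts in 232 libraries, and its Spearman correlation with WC1.3 over the libraries was 0.53. LOC112446753, a long non-coding RNA next to WC-7, was counted in all libraries with a mean of 66.4 CPM and a correlation of 0.64 with WC1.3. LOC112446748 had a mean of 0.842 CPM in 212 libraries and a correlation of 0.18. These rows were chosen after their values had been seen, and whether they encode WC1 proteins is not stated by their symbols.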
